A study of Mus musculus with 8 samples.

Results

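Early in meiosis the ends of each chromosome are tethered to the inner face of the nuclear envelope and moved by motors on the other side, and 10 genes of this machinery and of the lamina beneath it were followed here: Terb1 and Terf1 at the telomere, Sun1, Sun2, Kash5, Syne1 and Syne2 in the bridge across the envelope, and Lmna, Lmnb1 and Lmnb2 in the lamina. They were chosen by gene symbol, with no use of their measured values, from 24651 genes in RNA-seq of mouse testes at postnatal day 12. None of the 8 members that could be measured differed between wild type and Morc2b-/- testes by a test across all genes, and no member had levels in one genotype that lay wholly apart from those in the other. With every library kept, the largest fold change of the 8 was in Kash5, which averaged 55.4 ± 13.3 CPM (counts scaled to the library's size) in wild type and 42.7 ± 10.5 in Morc2b-/- testes (SD, n = 4). In some fits with libraries left out, Terf1 or Syne1, both measured with few counts, had the largest. Without wild type replicate 2 it was Terb1, at a log2 fold change of 0.301 beside -0.295 for Kash5. Sun1 and Sun2 were listed at 0 in every library, and their levels are not known from these counts.

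The study asked how transcript levels differ in testes that lack MORC2B, a germ cell-specific member of a family of chromatin-remodelling ATPases. RNA was taken from testis pairs of 4 wild type and 4 Morc2b-/- mice of a mixed strain background, 1 mouse per library, all aged postnatal day 12. The leading germ cells of the first wave are then in early meiotic prophase. The sample labels and the study's methods call the controls wild type, but the series' design text calls them Morc2b+/-, and these counts do not settle which. In the Morc2b-/- mice the coding exon is replaced by a neomycin cassette in every cell, and all of them descend from a single targeted embryonic stem cell clone. Each library is a whole testis pair, so fewer cells of a type and less RNA per cell cannot be told apart.

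The libraries held 27144796 to 36941755 counts on listed transcripts, and no 2 of them agreed within sampling noise. Among the wild type libraries 1 to 4, Morc2b counts were 428, 443, 24 and 1272, and among the Morc2b-/- libraries 10, 10, 115 and 2. The library labelled wild type replicate 3 was thus below the library labelled Morc2b-/- replicate 3, and libraries are named by their labels throughout. Transcripts of spermatids, cells not due at this age, reached 295 CPM in sum in Morc2b-/- replicate 3 and 146 CPM in wild type replicate 1, with the other 6 libraries between 1.85 and 32.8 CPM. Epididymis transcripts reached 249 CPM in wild type replicate 1 and at most 13.5 CPM elsewhere. The part of these libraries in the values below was measured by leaving them out. Markers of leptotene and zygotene spermatocytes, the cells that attach their telomeres, were present in all libraries, at 2298 to 3430 CPM in wild type and 2084 to 3564 CPM in Morc2b-/- testes (9 of 9 genes detected, 6 of 9 lower in Morc2b-/- on average). Markers of pachytene and later spermatocytes (6 of 6 genes detected) summed to 128, 96.3, 23.1 and 291 CPM in the wild type and 27.9, 38.3, 157 and 32.6 CPM in the Morc2b-/- libraries, with overlap between the genotypes. Markers of Sertoli cells, the supporting cells of the tubule, summed to 6457 to 7384 and 7007 to 7921 CPM.

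Telomeres are held at the envelope by a chain of proteins. TERF1 is a shelterin protein that binds the duplex telomere repeat in all cells, and TERB1 is a meiosis-specific protein that binds TERF1 and, with TERB2 and MAJIN, carries the telomere to the inner nuclear membrane. There SUN1 or SUN2 spans the inner membrane and grips, in the space between the membranes, the tail of a KASH protein of the outer membrane. KASH5 is the meiotic KASH protein and recruits dynein, the motor that moves telomeres along microtubules. SYNE1 and SYNE2, also called nesprins, are large KASH proteins found in many cell types. Lamins are the intermediate filaments of the lamina: LMNB1 and LMNB2 are B-type lamins, and Lmna encodes lamins A and C and the shorter spermatocyte form, lamin C2.

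The ends of the coding sequences show how these families are built, since the last codons carry the part that engages SUN proteins or that is lipid-modified. The last 30 coding bases, stop codon included, are given 5′ to 3′ from the NCBIM37 mouse genome, the same assembly as mm9. In the KASH genes the capitals mark 3 consecutive proline codons (CCN) before the last amino acid codon. Kash5 lies on the minus strand at chr7:52439120-52439149, Syne1 on the plus strand at chr10:5324505-5324534, and Syne2 on the plus strand at chr12:77211002-77211031.
Kash5: ctctactacctacagCCGCCACCAgtgtga
Syne1: agatataccaacggtCCTCCTCCActctga
Syne2: cggtacaccaacgggCCACCTCCCacctag
Of 43447 complete coding transcripts in the annotation (GENCODE vM1), 41 (0.0944%) end in this way.

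In the lamin genes the capitals mark a cysteine codon 4 codons from the end of the protein, the position at which farnesyltransferase attaches a lipid to prelamins. The Lmna sequence is that of the lamin A transcript, which lies on the minus strand and crosses a splice junction, so it comes from chr3:88285996-88286022 and chr3:88286268-88286270. The Lmnb2 sequence is on the minus strand at chr10:80365604-80365633.
Lmna: cagagctcccagaacTGCagcatcatgtaa
Lmnb2: actacctcaaggggcTGCcgactgatgtga
Lmnb1 has the codon at the same place. A cysteine codon at this place was found in 1301 of the 43447 transcripts (2.99%).

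What could be measured of each gene depended on how its transcripts overlap. Counts were given per RefSeq transcript, and reads that overlapped more than 1 listed transcript were set aside as ambiguous, at 26.8% to 28.9% of uniquely aligned reads per library. Kash5, Terb1, Lmnb1 and Syne2 had 1 listed transcript each, so no read was lost between forms of the gene. The other 6 members had several, and only reads on a stretch that belongs to a single form were counted. Among all genes, 17.1% of those with 1 listed transcript were at 0 in every library, against 25.6% of those with 3 or more.

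Sun1 (chr5:139676591-139725794, plus strand) had 5 listed transcripts and Sun2 (chr15:79554500-79572966, minus strand) had 3, all at 0 in the 8 libraries. In the GENCODE vM1 annotation the 3 complete coding transcripts of Sun2 have 1, 2 and 0 bases that are in no other Sun2 transcript. Of the 6 Sun1 transcripts, 3 have no base of their own, 2 have 48 and 51, and a short one coding for 239 residues has 808. These zeros therefore give no level for either SUN gene in either genotype.

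At the telomere, Terb1 (chr8:106970619-107033810, minus strand, named Ccdc79 in the annotation) was the better measured gene. It was at 48.6, 78.3, 48.4 and 55.3 CPM in wild type replicates 1 to 4 and at 41.6, 75.0, 58.9 and 74.2 CPM in Morc2b-/- replicates 1 to 4. The groups overlapped almost fully: the lowest library was Morc2b-/- replicate 1 and the highest was wild type replicate 2. The means were 57.6 ± 14.1 and 62.5 ± 15.7 CPM (SD, n = 4), a log2 fold change of 0.12 (SE 0.21, edgeR adjusted p = 0.9998). The 95% interval of the change ran from 0.777-fold to 1.51-fold. An exact two-sided permutation test over the libraries gave p = 0.714 (the smallest p that 4 against 4 libraries allow is 0.029).

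Terf1 (chr1:15795739-15833551, plus strand) was seen through few reads. Of its 2 listed transcripts 1 was at 0 and the other held all 238 counts, 21 to 36 per library. The 2 annotated coding transcripts have only 93 and 42 bases of their own, so these values describe a short stretch and not the level of the gene. That stretch was at 0.954, 1.10, 0.964 and 1.13 CPM in wild type and 0.873, 0.703, 1.03 and 0.722 CPM in Morc2b-/- testes. All 4 Morc2b-/- values were under the wild type median, but Morc2b-/- replicate 3 lay within the wild type range. The log2 fold change was -0.32 (SE 0.20, edgeR adjusted p = 0.9998; exact permutation p = 0.0857, two-sided), with a 95% interval of 0.590-fold to 1.09-fold. It ran from -0.44 to -0.24 with 1 library left out at a time. It was -0.48 without wild type replicate 1 and Morc2b-/- replicate 3, and -0.47 without both replicates 3, with adjusted p above the threshold each time.

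In the bridge across the envelope, Kash5 (chr7:52438994-52460262, minus strand, named Ccdc155 in the annotation) had 928 to 2189 counts per library. Its levels were 47.7, 64.2, 40.8 and 68.8 CPM in wild type replicates 1 to 4 and 29.997, 48.4, 38.7 and 53.6 CPM in Morc2b-/- replicates 1 to 4. Every Morc2b-/- library lay under the wild type median, yet replicates 2 and 4 were above wild type replicates 1 and 3, and the groups overlapped. Kash5 thus had a log2 fold change of -0.38 (SE 0.21, edgeR adjusted p = 0.9998; exact permutation p = 0.200, two-sided). The 95% interval ran from 0.553-fold to 1.07-fold. Leaving out 1 library at a time gave values from -0.51, without Morc2b-/- replicate 4, to -0.24, without Morc2b-/- replicate 1, with adjusted p above the threshold each time. It was -0.40 without the libraries high in spermatid transcripts, wild type replicate 1 and Morc2b-/- replicate 3, and -0.45 without both replicates 3. Of both replicates 3, the one labelled wild type had the fewer Morc2b counts (24 against 115).

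Syne2 (chr12:76919121-77211913, plus strand) had the highest count of the members, at 30063 to 45230 per library. It was at 1106, 1221, 1381 and 1084 CPM in wild type and 1462, 1113, 1115 and 1034 CPM in Morc2b-/- testes. Both the highest and the lowest library were Morc2b-/-, and the remaining values were intermixed. The log2 fold change was -0.02 (SE 0.12, edgeR adjusted p = 0.9998) with a 95% interval of 0.819-fold to 1.19-fold, and its sign turned when single libraries were left out (-0.14 without Morc2b-/- replicate 1 to 0.054 without wild type replicate 3).

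Syne1 (chr10:4795849-5326338, plus strand) had 14 to 42 counts per library, of which 98.6% fell on 1 of its 5 listed transcripts. It was at 0.627, 0.587, 0.500 and 1.32 CPM in wild type and 0.840, 0.703, 0.945 and 1.17 CPM in Morc2b-/- testes. Wild type replicate 4 was the highest of all 8 libraries and the other 3 wild type libraries were the 3 lowest. The log2 fold change was 0.26 (SE 0.33, edgeR adjusted p = 0.9998; 95% interval 0.712-fold to 2.01-fold), and it was 0.67 without wild type replicate 4, still with an adjusted p above the threshold.

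**Figure D1:**
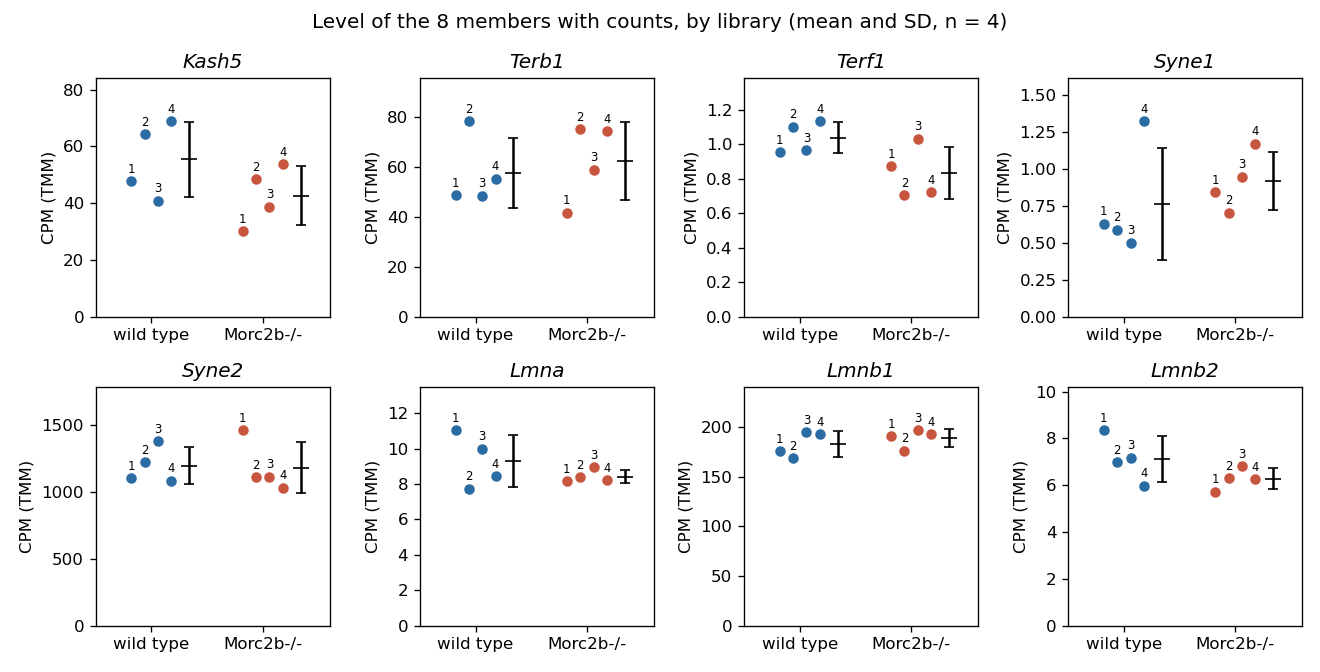
Level of each of the 8 measured members in CPM (vertical axis, from 0, a scale of its own per gene) in each library, wild type in blue and Morc2b-/- in red with the replicate number above each point, and the mean and SD of the 4 libraries as black bars. The groups overlap for every gene; Kash5 and Terb1 vary widely between libraries of one genotype, and Lmnb1 stays within 168.8 to 197.1 CPM.

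In the lamina, Lmnb1 (chr18:56867467-56913078, plus strand) was the steadiest member. It was at 175.9, 168.8, 195.2 and 193.4 CPM in wild type and at 190.9, 176.5, 197.1 and 193.2 CPM in Morc2b-/- testes. The highest library was only 1.17 times the lowest, with no separation by genotype. Its log2 fold change was 0.05 (SE 0.06, edgeR adjusted p = 0.9998), and the 95% interval of 0.935-fold to 1.14-fold is the narrowest of the members.

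Lmna (chr3:88285070-88313878, minus strand) was at 11.04, 7.74, 9.999 and 8.45 CPM in wild type and 8.15, 8.38, 8.97 and 8.22 CPM in Morc2b-/- testes. Both the highest and the lowest value were wild type, and the 4 Morc2b-/- values sat close together between them. Between genotypes the log2 fold change was -0.14 (SE 0.13, edgeR adjusted p = 0.9998), and it was -0.05 without wild type replicate 1, which also had the highest level of peritubular myoid markers (1694 CPM against 784 to 999 CPM elsewhere). Their part in the result was not tested. A single listed transcript held 2278 of the 2279 Lmna counts, and the others held 0 and 1. The CPM given here thus describe that transcript's own stretch and not the level of the gene. In the annotation the transcript for lamin A (665 residues) has 1248 bases of its own, that for lamin C (574 residues) has 1, and that for lamin C2 (462 residues) has 76, so lamin C could not be followed.

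Lmnb2 (chr10:80363948-80380990, minus strand) was at 8.34, 6.97, 7.18 and 5.97 CPM in wild type and 5.72, 6.30, 6.82 and 6.26 CPM in Morc2b-/- testes. Wild type replicate 1 was highest and Morc2b-/- replicate 1 lowest, with the other values overlapping. The log2 fold change was -0.18 (SE 0.13, edgeR adjusted p = 0.9998), and it was -0.09 without wild type replicate 1. Of its counts, 94.3% fell on 1 of the 2 listed transcripts and 5.71% on the other, with log2 fold changes of -0.18 (SE 0.13) and -0.20 (SE 0.29) when each was tested as a unit of its own (edgeR adjusted p = 0.9997 for both, with 0% of 13997 transcripts called).

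Read against the whole table, 0 of the 8 members tested passed an adjusted p of 0.05 in edgeR's quasi-likelihood test, where 0% of 13507 genes passed. The deleted gene itself, Morc2b, was not called by this test (log2 fold change -4.09, SE 1.21, edgeR adjusted p = 0.9998), so the lack of a call is no evidence that a member was the same in both genotypes. At an unadjusted p under 0.05 the counts were 0 of 8 members and 249 genes (1.84%), and 0 of 8 members had groups that did not overlap, against 174 genes (1.29%). DESeq2 called 1 gene, Pkmyt1, which is no member and is named after its values were seen (log2 fold change -0.49, SE 0.10, DESeq2 adjusted p = 0.00931). The study's own comparison, made with Cuffdiff and an expression cutoff, did report differentially expressed genes between the genotypes. It was not remade here. Of the 8 members 3 had a log2 fold change above 0 and 5 below, with a median of -0.08 beside 0.00 over all genes tested. At background shares of at most 1.84%, 0 of 8 is the usual outcome, so these counts cannot tell the members from other genes.

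**Figure D2:**
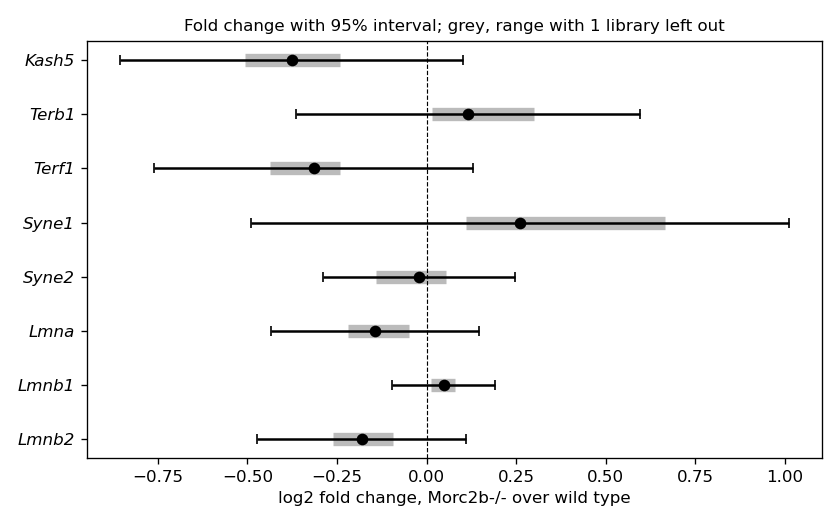
Log2 fold change (horizontal axis) of Morc2b-/- over wild type for each of the 8 measured members, with the estimate as a point, its 95% interval as a black line and the range over 8 fits with 1 library left out as a grey bar. Every interval crosses 0; the grey bar crosses 0 for Syne2 alone, and Syne1 has the widest interval and Lmnb1 the narrowest.

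Members also varied to different degrees between mice of the same genotype. The SD of log2 CPM within genotype was 0.36 for both Kash5 and Terb1, at the 78.0th percentile of the genes tested, whose median was 0.19. It was 0.09 for Lmnb1 (14.8th percentile), 0.16 for Lmnb2 and 0.17 for Lmna. Syne2 was at 0.19 and close to the median gene. Syne1 and Terf1, at 0.46 and 0.19, were measured with at most 42 counts per library.

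The germ cell-specific genes moved together by replicate number but did not share their highest library. Within each genotype, all 5 named next were higher in replicates 2 and 4 than in replicates 1 and 3, and the reason was not tested. Kash5, Terb1 and the other telomere attachment genes Terb2, Majin and Spdya were all lowest in Morc2b-/- replicate 1, at 29.997, 41.6, 13.7, 25.3 and 19.3 CPM. Terb1, Terb2 and Majin were highest in wild type replicate 2, at 78.3, 25.5 and 39.6 CPM, and Kash5 and Spdya in wild type replicate 4, at 68.8 and 39.9 CPM. The summed leptotene and zygotene markers were lowest in Morc2b-/- replicate 1, at 2084 CPM, and highest in Morc2b-/- replicate 4, at 3564 CPM, where none of the 5 genes was highest. Within each genotype their sum, too, was higher in replicates 2 and 4 than in replicates 1 and 3. Markers of pachytene and later spermatocytes were highest in wild type replicate 4, as Kash5 was, at 291 CPM, and their part in its level was not tested. Set against the leptotene and zygotene markers, Kash5 was 1.78% to 2.01% of their sum in wild type and 1.44% to 1.84% in Morc2b-/- testes. Terb1 was 1.61% to 2.32% and 1.998% to 2.85% of it. Both ranges overlapped between the genotypes, and the part of spermatocyte number in the levels of Kash5 and Terb1 was not tested.

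**Figure D3:**
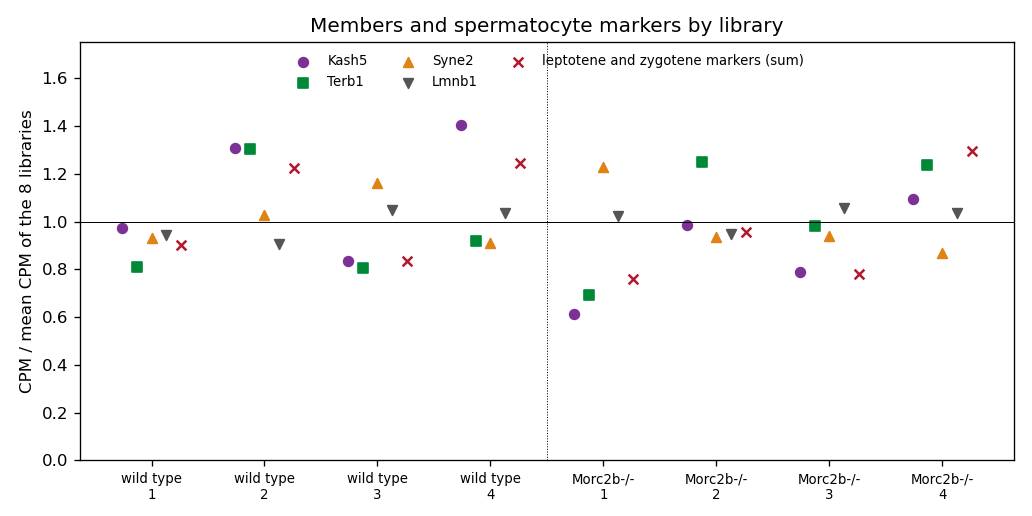
CPM of Kash5, Terb1, Syne2 and Lmnb1 and of the summed leptotene and zygotene markers in each library (horizontal axis), each divided by its mean over the 8 libraries (vertical axis, no unit), with wild type to the left of the dotted line. Kash5, Terb1 and the marker sum are all low in Morc2b-/- replicate 1 and high in wild type replicate 2, while Lmnb1 stays near 1.

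The ratio of Kash5 to Terb1 within a library does not depend on library scaling. It was 0.980, 0.820, 0.843 and 1.25 in wild type replicates 1 to 4 and 0.721, 0.644, 0.656 and 0.722 in Morc2b-/- replicates 1 to 4. Every Morc2b-/- ratio was below every wild type ratio (means 0.972 ± 0.195 and 0.686 ± 0.0413, SD, n = 4), a log2 difference of -0.48. This pair was picked after its values were seen, as the 1 pair of the 28 between measured members whose ratios did not overlap, so no test is given. Over all 91212771 pairs of tested genes 1.41% do not overlap. With other telomere genes as the denominator, the ratio of Kash5 to Spdya was 1.73 to 2.20 in wild type and 1.44 to 1.55 in Morc2b-/- testes. Spdya was named after its values were seen, and its ratio shares the Kash5 values of the first, so it is no separate observation. The ratios to Terb2 (2.20 to 3.35 and 2.18 to 2.34) and to Majin (1.46 to 1.89 and 1.19 to 1.49) overlapped.

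**Figure D4:**
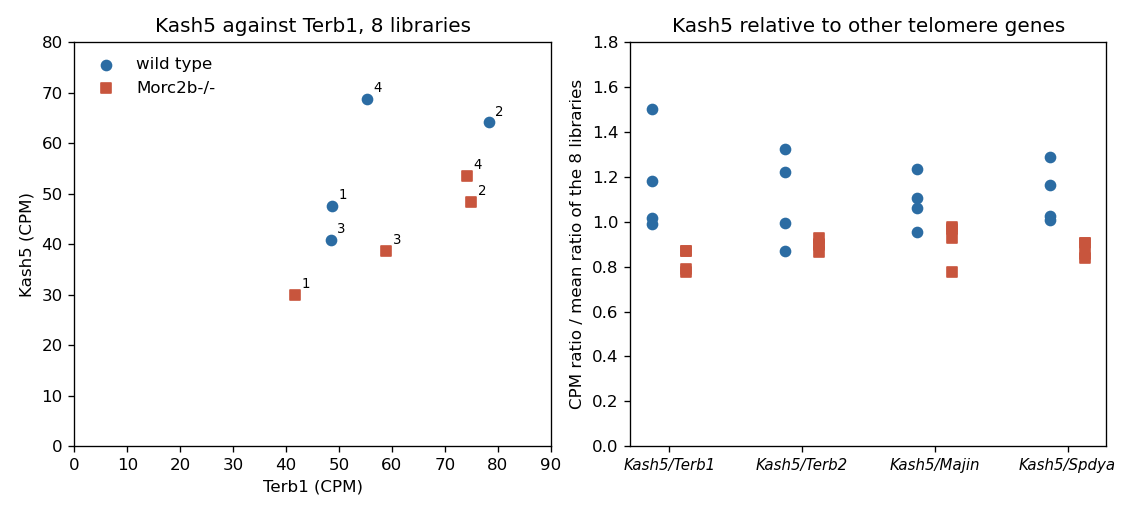
Left, Kash5 against Terb1 in CPM, 1 point per library with its replicate number, wild type as blue circles and Morc2b-/- as red squares. Right, the ratio of Kash5 to each of 4 telomere genes divided by its mean over the 8 libraries (vertical axis, no unit, from 0), where the genotypes are apart for Terb1 and Spdya and overlap for Terb2 and Majin. All 4 ratios share the same Kash5 values.

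Compared per kilobase of the longest annotated coding transcript, which allows levels of different genes to be set side by side, the 4 members with 1 listed transcript fell into 2 tiers. Lmnb1 was at 64.5 ± 4.57 CPM per kb in wild type and 66.6 ± 3.16 in Morc2b-/- testes, and Syne2 at 55.2 ± 6.27 and 54.4 ± 8.81 (SD, n = 4). Kash5 was at 24.5 ± 5.87 and 18.9 ± 4.63 CPM per kb, and Terb1 at 19.5 ± 4.78 and 21.2 ± 5.33. Within each tier the ranges over the 8 libraries overlapped (59.4 to 69.3 for Lmnb1 and 47.6 to 67.4 for Syne2; 13.3 to 30.4 for Kash5 and 14.1 to 26.5 for Terb1), so the order inside a tier is not resolved. Between the tiers they did not overlap.

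The partners of these proteins were followed in 6 lists, which hold 52 genes besides the members Terb1 and Terf1. Of these 44 were tested, 0 rose and 0 fell at an adjusted p of 0.05 (edgeR), and 0 had an unadjusted p under 0.05, against 1.84% of all genes tested. A log2 fold change above 0 was found in 14 and below 0 in 30, with a median of -0.04 and a range of -0.58 to 0.09, while over all genes tested 6860 were above and 6647 below 0, with a median of 0.00. Partners with several listed transcripts were, like such members, counted only on stretches of a single form, so their values are not levels of the gene. All tested partners of that kind were below 0, and all 14 above 0 had 1 listed transcript. The part of this in the split was not tested.

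In shelterin, the complex that caps telomeres, 6 of 7 genes were tested, Terf1 included, with a median log2 fold change of -0.04. Besides Terf1, the largest value was that of Terf2ip, which encodes RAP1, at 0.08 (SE 0.06; 64.9 ± 3.51 CPM in wild type and 68.8 ± 2.80 in Morc2b-/- testes). In the meiotic telomere complex and its kinase all 5 genes were tested, with only the member Terb1 above 0, the other 4 below and a median of -0.10. Cdk2, the kinase that sits at meiotic telomeres with its activator SPDYA, had a log2 fold change of -0.16 (SE 0.12; 5.53 ± 0.442 and 4.93 ± 0.437 CPM), and Majin, the membrane anchor of the complex, one of -0.12 (SE 0.16).

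Of 21 dynein and dynactin genes, which encode the motor recruited by KASH5 and its cofactor, 18 were tested, with a median log2 fold change of -0.04. The widest were Dynlt1b, a dynein light chain with near-identical gene copies that make its count uncertain, at -0.48 (SE 0.47), and Dctn1, the large dynactin subunit, at -0.27 (SE 0.36). Both averaged under 1 CPM in each genotype. Dync1i1 and Dync1i2, with 5 and 9 listed transcripts, were listed at 0, and Dctn1 had 4 listed transcripts. Reads shared between forms were not counted, so these values do not give the levels of those genes.

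Of 11 inner nuclear membrane and lamina partners 9 were tested, and they lay between -0.05 and 0.05 on the log2 scale. Nrm, which encodes nurim, and Lbr, the lamin B receptor, were both at -0.05 (SE 0.08 and 0.07). Nrm averaged 44.3 ± 1.63 and 42.6 ± 4.24 CPM in wild type and Morc2b-/- testes. Of the 5 lamin processing genes, all tested, Icmt, the methyltransferase that acts on the farnesylated cysteine, had a log2 fold change of -0.58 (SE 0.41) on levels of 0.574 ± 0.111 and 0.377 ± 0.224 CPM, and Zmpste24, the protease that matures prelamin A, one of 0.06 (SE 0.06). Of 5 further SUN and KASH genes 3 were tested, and the 2 with the largest values were Syne4 at -0.26 (SE 0.29) and Spag4, a SUN gene of spermatids, at -0.04 (SE 0.13). Icmt, Syne4 and, above, Cdk2 had 2 listed transcripts each, so their values cover stretches of a single form and not the whole gene.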

How the data were processed

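The deposited files hold read counts per RefSeq transcript, which the authors made from 1 TruSeq stranded library per testis pair. The study's methods give TopHat alignment to NCBI37/mm9, and Cufflinks and Cuffdiff for its own comparison; the counting program and its use of strand are not given in the sources used here, so antisense reads may be included. Reads on no listed transcript were 20.7% to 26.5% and ambiguous reads 26.8% to 28.9% of uniquely aligned reads, and both were left out.

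Counts were summed per symbol (35522 of 35819 transcripts matched a RefSeq symbol; 297 were kept as units of their own). The genotype test was run in R 4.3.3 with edgeR 4.0.16 (TMM, filterByExpr, glmQLFit and glmQLFTest, no covariate; Benjamini-Hochberg over 13507 genes), which replaced Cuffdiff because that needs alignments. DESeq2 1.42.0 was an alternative. Standard errors are the size of the log2 fold change divided by the square root of F. Exact permutation tests used log2 CPM with a prior count of 2. CPM uses TMM library sizes. The test was checked on simulated data. Each p-value judges the difference between genotypes against the variation between mice, with 4 mice per genotype.

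Named genes are the 10 members, the 2 genes per partner list with the largest absolute log2 fold change among those tested, and Morc2b; Terb2, Spdya, Dync1i1 and Dync1i2 were named after their values were seen. Members, lists and tests were chosen with earlier results of these data known. Added after seeing the data were fits without wild type replicate 1 and Morc2b-/- replicate 3, and without both replicates 3.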

Additional observations from a re-analysis of the deposited data

Results flagged for a closer look

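The level of Syne1 in wild type replicate 4, 1.32 CPM, stood far from the other 3 wild type libraries, at 0.500 to 0.627 CPM. Its gap to the nearest of them was 0.845 of the group's whole range, above Dixon's 95% critical value for 4 samples. It rests on 42 counts. This was 1 of 16 groups checked, and chance flags about 1 in 20.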

How the results depend on the processing

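Of 120 member log2 fold changes under other settings, 115 kept their direction and their side of the threshold and 5 changed sign, all of them Syne2: 0.082 without both replicates 3, and 4 of the fits with 1 library left out (range -0.14 to 0.054; -0.14 to 0.056 for its transcript). No member was called under any setting. DESeq2 called 1 gene where edgeR called 0, and the cause was not tested. With no filter 422 genes and with at least 10 counts in every sample 232 genes had an unadjusted p under 0.05, and 0 were called in both. Over all tested genes, the mean correlation of deviations was 0.0548 over 4 same-number and -0.0156 over 12 different-number pairs. Single pairs ranged from -0.322 to 0.453 and from -0.498 to 0.614, so these means do not settle whether the replicate numbers pair the mice. Kash5, Terb1, Terb2, Majin and Spdya were higher in replicates 2 and 4 than in replicates 1 and 3 within each genotype. The labels do not say what the numbers stand for. A fit with a replicate block called 0 genes, while 572 had an unadjusted p under 0.05, Kash5 among them at -0.38 (SE 0.10, edgeR adjusted p = 0.985). Kash5 also passed an unadjusted p of 0.05 without wild type replicate 3 and without Morc2b-/- replicate 4, and Syne1 without wild type replicate 4. Member transcripts tested alone gave no other change of sign. Shares of counts between transcripts gave no value, since 0 members had 2 transcripts with 10 or more counts in every library. Few counts limit Terf1 and Syne1.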
